A study of Leucoraja erinaceus with 6 samples.

Results

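The genes that make, package and break down the transmitter acetylcholine were followed in dorsal root ganglia (DRG) and spinal cord of the little skate, Leucoraja erinacea. They were taken as every row of the count table named chat, slc18a3, slc5a7, ache, bche, colq or prima1, with or without the suffix a or b on the first 3 names. This gave 5 genes of 22087 named rows: chata, slc18a3a, ache, prima1 and colq. No row carried the names slc5a7 (the choline transporter of cholinergic terminals) or bche (butyrylcholinesterase), and these were not analysed here. Each tissue had 3 libraries of untreated wild-type embryos at stage 32, and each library pooled the tissue of 3 to 4 embryos. Pool numbers 815, 816 and 818 were given to replicates 1, 2 and 3 of both tissues. All embryos were anesthetized with MS-222 (tricaine), which blocks nerve activity, before dissection. The labels describe both tissues as mixtures of neurons and glia, so in this bulk measurement fewer cells of a type and less RNA per cell cannot be told apart.

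Acetylcholine is made in the cytoplasm from choline and acetyl-CoA, loaded into synaptic vesicles, released, and split in the synaptic cleft. In the vertebrate spinal cord it is the transmitter of motor neurons, of preganglionic autonomic neurons and of some interneurons, while the main fast transmitter of DRG sensory neurons is glutamate. Acetylcholinesterase, the splitting enzyme, is secreted and held in place by anchoring proteins, and it is also made by cells that do not release acetylcholine. The study contrasted both tissues to find the genes that set each apart.

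The libraries held 24342810 to 28782890 counts in named genes. Levels are given as CPM, counts scaled to library size, with TMM factors (trimmed mean of M values). A count of 3, taken as the detection floor, equals 0.136 to 0.176 CPM in a DRG library and 0.0764 to 0.0888 CPM in a spinal cord library. The log2 fold change, written log2FC, is DRG over spinal cord, so that negative values are lower in DRG. Transcripts of 13 mitochondrially encoded proteins took 24.3% to 35.7% of counts in DRG and 5.39% to 6.88% in spinal cord. Leaving mitochondrial genes out left the median log2FC of all tested genes at -0.04 and that of chata at -6.90. Both fits used TMM factors, and library sizes without mitochondrial genes were not tried. The effect of the mitochondrial share on the levels was therefore not tested. If library sizes are used without TMM factors, the median moves from -0.04 to -0.99. Levels are compared between tissues for 1 gene at a time and not between genes, since no transcript lengths were used. Of 9 sensory neuron markers tested, 7 were higher in DRG. All 10 spinal interneuron markers and all 7 spinal progenitor markers tested were higher in spinal cord. Transcripts of evx1 and sim1a, markers of spinal interneurons, had no count in any DRG library, but evx1 was weak in spinal cord too (0.496 CPM). Other interneuron markers had counts in DRG replicates 1, 2 and 3, among them gad2 (43, 49 and 91) and slc6a5 (26, 20 and 48).

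Expression of the cholinergic genes was higher in spinal cord for 4 of the 5 genes, and none was higher in DRG. Calls were made with the quasi-likelihood test of edgeR at a Benjamini-Hochberg adjusted p of 0.05 over 16112 genes. Of all tested genes, 55.9% passed in either direction, 28.1% as higher in spinal cord and 27.8% as higher in DRG. The libraries of the tissues did not overlap for the same 4 genes, as for 34.1% of all tested genes with spinal cord above DRG and 30.8% with DRG above spinal cord. All 5 genes passed the filter on low counts. The sizes of the differences ranged widely: as a percentage of the spinal cord mean, DRG levels were 0.819% for chata, 1.39% for slc18a3a, 14.7% for the membrane anchor prima1, 51.7% for ache and 71.9% for colq. With library sizes alone the last 3 were 7.49%, 27.5% and 37.9%.

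The first gene, chata, encodes choline acetyltransferase, which makes acetylcholine and defines cholinergic neurons. Its counts were 2418, 2620 and 3184 in spinal cord replicates 1, 2 and 3, and 3, 14 and 18 in DRG replicates 1, 2 and 3. On the normalised scale these are 61.5, 77.6 and 81.5 CPM in the spinal cord and 0.172, 0.821 and 0.814 in DRG. Every spinal cord library was far above every DRG library, and DRG replicate 1 lay at the detection floor. The fold was 119, with a log2FC of -6.90 with a standard error of 0.38 (adjusted p = 6.92e-06), and 0.354% of tested genes had a lower value. With so few counts, DRG replicate 1 has an exact 95% Poisson interval of 0.0354 to 0.501 CPM, and DRG replicates 2 and 3 have intervals of 0.449 to 1.38 and 0.482 to 1.29 CPM. Without molecular identifiers reads are not independent molecules, and such intervals describe counting error alone.

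The second gene, slc18a3a, encodes the vesicular acetylcholine transporter, which fills synaptic vesicles with acetylcholine in exchange for protons. It had 2039, 2143 and 3247 counts in spinal cord and 9, 9 and 38 counts in DRG, for replicates 1, 2 and 3. This corresponds to 51.9, 63.4 and 83.1 CPM in the spinal cord and 0.515, 0.528 and 1.72 in DRG. The tissues did not overlap, and DRG replicate 3 stood above the other DRG libraries. The exact Poisson interval of DRG replicate 3, 1.22 to 2.36 CPM, did not reach those of DRG replicate 1 (0.235 to 0.977 CPM) and DRG replicate 2 (0.241 to 1.00 CPM). The fit gave a log2FC of -6.10 with a standard error of 0.44 (adjusted p = 2.27e-05), a 68.6-fold difference, and 0.857% of tested genes had a lower log2FC. It was -6.99 without DRG replicate 3 (adjusted p = 1.21e-05), so this library lowers the fitted difference by more than 1.5-fold.

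**Figure D1:**
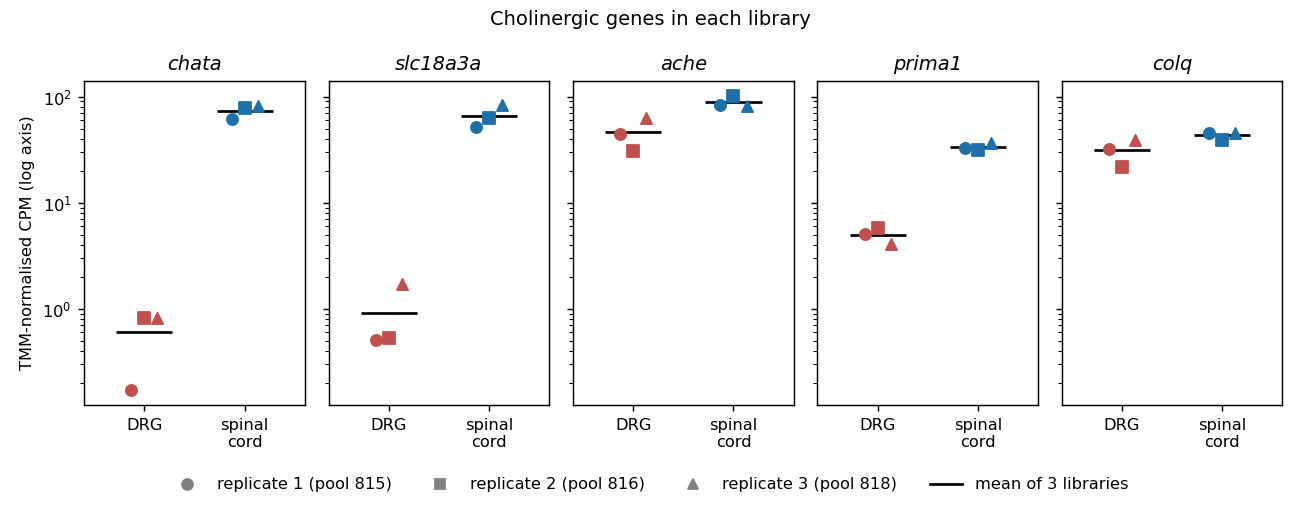
Normalised expression (CPM on a log axis) of the 5 cholinergic genes in each DRG and spinal cord library, with marker shape for the replicate and a bar for the mean of 3 libraries. The DRG libraries of chata and slc18a3a lie at 0.172 to 1.72 CPM, those of ache lie at 30.7 to 63.3 CPM, and the libraries of the tissues overlap for colq alone among the 5 genes.

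In mammals the vesicular transporter gene lies within the first intron of the choline acetyltransferase gene, an arrangement called the cholinergic locus. In a RefSeq gene table of the skate assembly Leri_hhj_1, chata and slc18a3a were direct neighbours with spans that do not overlap. The ratio of chata to slc18a3a counts, which no scaling of the libraries can change, was 1.19, 1.22 and 0.981 in spinal cord replicates 1, 2 and 3. In DRG it was 0.333, 1.56 and 0.474 in replicates 1, 2 and 3. The spinal cord ratios lay close together, and the DRG ratios, based on 3 to 38 counts, fell on both sides of them. The log2 ratio (0.5 added to each count) was -0.63 ± 1.09 in DRG and 0.17 ± 0.17 in spinal cord (SDs of 3 libraries; exact permutation test, two-sided, p = 0.4, where 3 against 3 libraries can give no less than 0.1). With 3 against 3 libraries this test cannot pass the threshold at any depth, so it cannot decide whether the ratio differs between tissues.

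Of the 4 other genes within 2 places of chata or slc18a3a, 3 were lower in DRG and 1 was higher. Of all tested genes, 28.1% were lower in DRG and 27.8% were higher. The 3 lower genes passed the filter on low counts through their spinal cord counts alone. They could thus be called in that direction only, and their number is no test of a pattern at this locus. On the far side of chata, c34h10orf53 had 85, 27 and 32 counts in spinal cord and none in DRG, which puts it at least 7.17-fold lower in DRG (mean spinal cord level over the highest DRG floor). Beyond slc18a3a, rgra likewise had no DRG count, against 26, 35 and 69 counts in spinal cord, and was at least 6.57-fold lower in DRG. Both were weakly expressed, at 1.26 ± 0.782 and 1.15 ± 0.562 CPM in spinal cord (SD, n = 3). The next gene past rgra, lrit1a, had 39, 71 and 52 counts in spinal cord and 4, 1 and 1 in DRG (log2FC -3.72, SE 0.71, adjusted p = 0.00261). The next gene past c34h10orf53, LOC129712906, went the other way, at 205 ± 25.7 CPM in DRG and 102 ± 14.6 in the spinal cord (SDs of 3 libraries; log2FC 1.01, SE 0.16, adjusted p = 0.00118). Within 2 places of prima1 or colq, LOC129699937, LOC129699966, plekha8 and fkbp14 were lower in DRG as well. Of these, LOC129699937 also passed the filter through its spinal cord counts alone. There asb2a.1 and LOC129712071 did not pass, and LOC129699936 had no count.

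Low levels of chata and slc18a3a in DRG were set beside those of genes of spinal neurons and progenitors. As a percentage of the spinal cord mean, chata stood at 0.233%, 1.12% and 1.11% in DRG replicates 1, 2 and 3, with a mean of 0.819% ± 0.507 (SD, n = 3). For slc18a3a the DRG libraries stood at 0.778%, 0.798% and 2.60%, with a mean of 1.39% ± 1.04 (SD, n = 3). The same percentage was computed for 16 markers of spinal interneurons, progenitors and motor neurons with at least 1 CPM in spinal cord, among them the inhibitory neuron genes gad2 (1.07% ± 0.293) and slc6a5 (0.755% ± 0.239) and the motor neuron progenitor gene olig2 (0.872% ± 0.580; SD, n = 3). The median of the 16 was 0.964%, 1.45% and 0.906% in DRG replicates 1, 2 and 3. Of the 16 markers, 5 had a lower mean percentage than chata and 10 had a lower one than slc18a3a. Without DRG replicate 3 the mean of slc18a3a was 0.788%, and 2 and 4 markers lay below chata and slc18a3a. Without DRG replicate 1 these numbers were 7 and 10, and without DRG replicate 2 they were 5 and 11. The markers were listed as spinal cord genes with earlier results known and kept by their spinal cord level. The places of chata and slc18a3a among them are therefore descriptive and no test. Several of these places, and the medians, rest on few reads. Summed over the DRG libraries, shha, mnx1, lhx3 and foxa2 had 1 count each and lhx9 had 5. For foxa2 that 1 count is 3.57% of the spinal cord mean in DRG replicate 1. The markers spread widely, from no DRG count for sim1a to gata2b (28.7%), sox2 (21.8%) and isl2a (1936%), the last of which sensory neurons also express. Whether spinal cord tissue in the DRG samples contributes to the DRG counts was not tested.

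**Figure D2:**
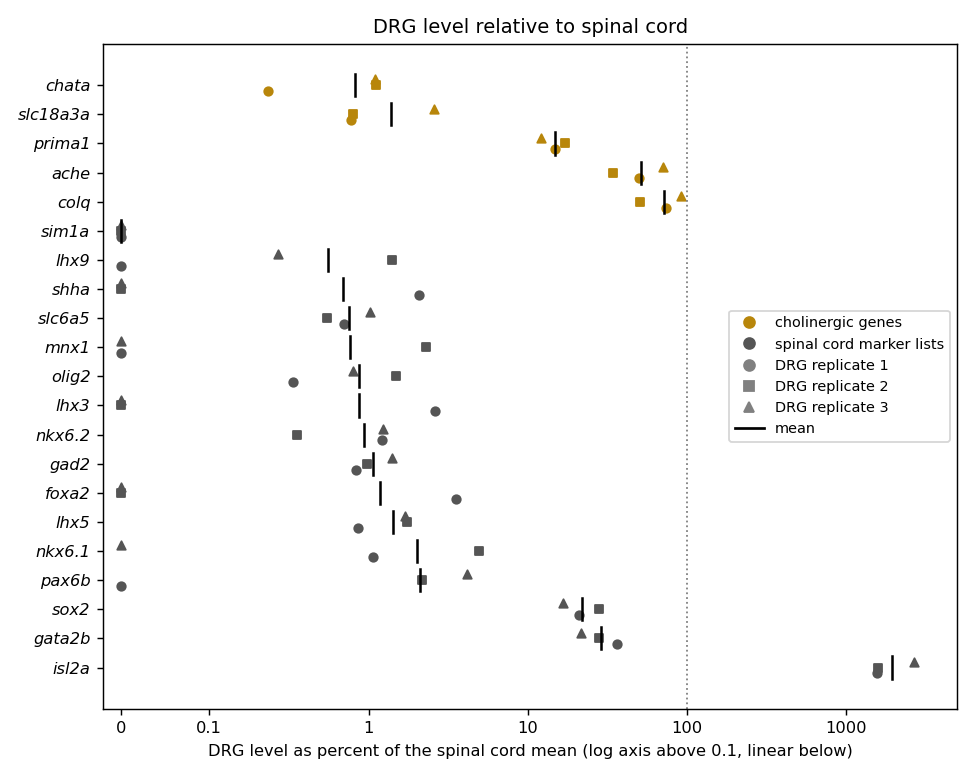
DRG level as a percentage of the spinal cord mean (log axis above 0.1, linear below) for the 5 cholinergic genes and for 16 spinal cord markers, with marker shape for the DRG replicate and a bar for the mean. The means of chata and slc18a3a are 0.819% and 1.39% and the median of the marker means is 1.00%, whereas prima1, ache and colq lie at 14.7%, 51.7% and 71.9%.

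Breakdown of acetylcholine was represented by ache, the gene of acetylcholinesterase. It had 3292, 3442 and 3206 counts in spinal cord and 779, 523 and 1400 counts in DRG, in replicates 1, 2 and 3. This is 83.8, 102 and 82.1 CPM in the spinal cord and 44.5, 30.7 and 63.3 in DRG. The tissues did not overlap, although the DRG libraries varied, with replicate 3 nearest to the spinal cord and replicate 2 farthest from it. The fit gave a log2FC of -0.95 with a standard error of 0.25 (adjusted p = 0.0129), a 1.93-fold difference, and 23.7% of tested genes had a lower value. The call held in each fit that left out 1 library, with the highest adjusted p, 0.0493, without spinal cord replicate 2.

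Acetylcholinesterase is held at its site of action by anchors, and prima1 encodes PRiMA, the transmembrane protein that tethers the enzyme to the surface of neurons. Its counts were 1288, 1067 and 1437 in spinal cord and 88, 99 and 90 in DRG. Levels were 32.8, 31.6 and 36.8 CPM in the spinal cord and 5.03, 5.80 and 4.07 in DRG, in replicates 1, 2 and 3. The libraries of each tissue were close together and the tissues lay far apart, with a log2FC of -2.77 with a standard error of 0.18 (adjusted p = 1.50e-05), or 6.80-fold, and 6.49% of tested genes had a lower value. In the RefSeq table the span of prima1 overlaps that of LOC129699966, which was at 36.6 ± 11.2 CPM in DRG and 56.6 ± 3.75 in the spinal cord (SDs of 3 libraries; log2FC -0.63, SE 0.23, adjusted p = 0.0462). Reads from the shared stretch could have been assigned to either gene, so the counts of prima1 are uncertain to that extent.

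The other anchor gene, colq, encodes the collagen tail that fixes acetylcholinesterase in the extracellular matrix, best known at the neuromuscular junction. It had 1769, 1326 and 1771 counts in spinal cord and 560, 372 and 872 in DRG, in replicates 1, 2 and 3. Levels were 45.0, 39.3 and 45.3 CPM in the spinal cord and 32.0, 21.8 and 39.4 in DRG. The highest DRG library was level with the lowest spinal cord library, so the tissues overlapped. The log2 fold change of -0.47 ± 0.21 (SE) did not pass the threshold (adjusted p = 0.0915). The call depended on the setting: with pool number as a replicate block the adjusted p was 0.0496 (log2 fold change -0.51), without DRG replicate 3 it was 0.0161 (-0.69), with upper quartile factors 0.0492 (-0.53), after a filter of 10 counts per library 0.0484 (-0.56), and with library sizes alone 0.00249 (-1.40).

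Within DRG, ache and colq shared their order of libraries, highest in replicate 3 and lowest in replicate 2. In CPM prima1 had the opposite order, but its counts of 88, 99 and 90 in replicates 1, 2 and 3 were close together. Replicate 2 was highest for prima1 by count as well, while the order of replicates 1 and 3 rests on the TMM factors (0.671, 0.657 and 0.834 in replicates 1, 2 and 3). The summed level of 9 sensory neuron markers was 739, 668 and 916 CPM in DRG replicates 1, 2 and 3. The gene ntrk2a made up most of this sum, the other 8 markers summed to 302, 314 and 340 CPM, and 3 of the 9 had the order of ache and colq. Sums over 5 connective tissue markers were 2353, 3464 and 1419 CPM in the same libraries, against 121 to 156 CPM in spinal cord. Sums over 9 peripheral glia markers were 8458, 14275 and 7914 CPM in DRG replicates 1, 2 and 3, also highest in replicate 2. In spinal cord they were 37992 to 46105 CPM, and of the 9 markers 4 passed as higher in DRG and 4 in spinal cord. The myelin genes mpz (mean 31499 CPM) and mbpa (8028 CPM) made up most of the spinal cord sums. This list therefore does not mark peripheral glia alone. The muscle list, of which 6 of 12 symbols were found and 2 genes tested, summed to 20.3, 41.6 and 13.5 CPM in DRG and to 8.55 to 13.1 CPM in spinal cord, where myod1 had no count. Blood markers (4 of 6 found) summed to 127, 149 and 72.1 CPM in DRG and to 19.3 to 21.2 CPM in spinal cord. Without ptprc, left out after its values were seen, the other 3 blood markers summed to 115, 81.9 and 58.6 CPM, highest in replicate 1. The DRG library lowest in ache and colq, replicate 2, was thus the highest in CPM for all 5 connective tissue markers and for 5 of the 6 muscle genes, but for 2 of the 4 blood markers. Of these muscle genes, 3 had few reads: myod1 had 1, 9 and 0 counts in DRG replicates 1, 2 and 3, myog 4, 7 and 3, and myf5 1, 4 and 5. By count myf5 was highest in replicate 3. The part of glia and of these other tissues in the DRG levels of ache and colq was not tested.

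Ratios between the 5 genes within a library do not depend on scaling, and all 10 pairs were compared after their values were seen. Their tissues did not overlap for 9 pairs, all but chata to slc18a3a. The share of all gene pairs without overlap was not computed. Of single tested genes, 34.1% did not overlap with spinal cord above DRG and 30.8% with DRG above spinal cord. The pairs of chata or slc18a3a with ache, prima1 or colq restate the unlike fold changes of the single genes. Each of the 9 had a two-sided exact permutation p of 0.1, the smallest that 3 against 3 libraries allow, and 0.111 after Benjamini-Hochberg adjustment over the 10 pairs, so no pair can pass the threshold with this test. The ratio of ache to prima1 counts was 8.85, 5.28 and 15.6 in DRG and 2.56, 3.23 and 2.23 in the spinal cord, in replicates 1, 2 and 3. Relative to ache, the membrane anchor was therefore scarcer in every DRG library, by 3.39-fold on average. Relative to colq, ache moved by less, with ratios of 1.39, 1.41 and 1.61 in DRG and 1.86, 2.60 and 1.81 in the spinal cord, a 1.41-fold difference. The ratio of prima1 to colq, the membrane anchor against the matrix anchor, was 0.157, 0.266 and 0.103 in DRG and 0.728, 0.805 and 0.811 in the spinal cord. This is a 4.77-fold difference between tissues, and the spinal cord ratios varied little.

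**Figure D3:**
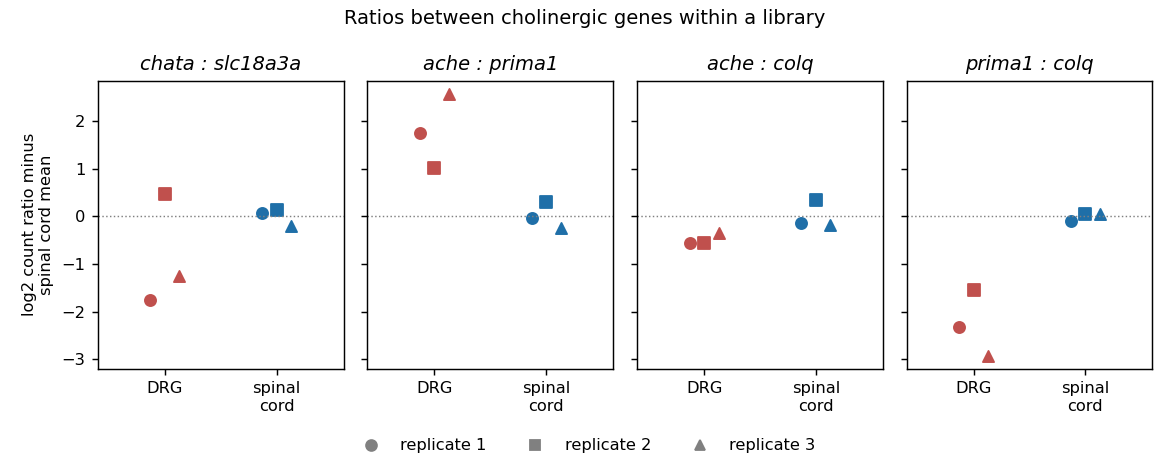
Log2 ratio of the counts of 4 pairs of cholinergic genes in each library, minus the spinal cord mean of that ratio (dotted line at 0), with marker shape for the replicate. The ratios of ache to prima1, ache to colq and prima1 to colq do not overlap between tissues, while the DRG values of chata to slc18a3a lie on both sides of the spinal cord values.

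Genes with a symbol, a mean of at least 5 CPM in 1 tissue and a profile like that of a cholinergic gene were sought among 7407 candidates, by the root mean square difference of centred log2 CPM over the 6 libraries. Nearest to chata were neurod2 (0.36), olig2 (0.36), enpp2 (0.46), sall1a (0.46) and slc1a2b (0.48). Nearest to slc18a3a were ajap1 (0.30), gucy1a2 (0.37), sall3b (0.38) and barhl2 (0.42). The distance between chata and slc18a3a themselves was 0.69. It is larger than all of these, but they are the smallest found among 7407 candidates, so the comparison cannot rate the pair. In DRG, neurod2, ajap1, gucy1a2 and barhl2 had means of 0.0994, 0.129, 0.0989 and 0.0151 CPM, below the detection floor. Their distances therefore depend in part on the small count (2 on average) added before taking logs. For prima1 the nearest were sntb1 (0.11), dab1a (0.13), rassf2a (0.13), metrn (0.13) and ugt8 (0.13), and for ache they were arhgap35a (0.05), bcat1 (0.06), pde8b (0.06), igdcc4 (0.07) and grin1a (0.07). The distance of ache to colq was 0.30. With 2 tissues such a distance depends mainly on the fold change, so a small one does not show expression in the same cells. The log2FC was -6.85 to -6.49 for the 5 genes nearest to chata and -1.01 to -0.95 for those nearest to ache. The match was looser for slc18a3a, where the named genes ran from -7.96 (barhl2) to -6.35 (sall3b), all below its own -6.10.

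The other genes of cholinergic transmission were followed in 9 lists with 112 symbols, of which 67 rows were found and 61 genes tested. Of these 61, 32 were higher in spinal cord, 14 were higher in DRG and 15 did not pass. The share past the threshold was 75.4%, against 55.9% of all genes (28.1% higher in spinal cord and 27.8% in DRG). The lists were written with earlier results of these data known, so this excess is no test of the lists. With library sizes alone the split was 44 higher in spinal cord and 6 in DRG, where all genes gave 9190 and 1692. The other symbols of the lists matched no row, and rows without a symbol were not searched, so the lists may be incomplete.

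Choline supply went both ways (10 genes tested, 4 higher in spinal cord and 3 in DRG, median log2 fold change 0.19 against -0.04 for all genes). The choline transporter gene flvcr1 was at 486 ± 53.6 CPM in the spinal cord and 158 ± 10.4 in DRG (SDs of 3 libraries; log2FC -1.62, SE 0.15, adjusted p = 6.91e-05). Its relative flvcr2a and the phosphatidylcholine synthesis gene chpt1 also had lower levels in DRG (-1.25 and -2.02), and so did chdh, which oxidises choline (-1.17). Higher levels in DRG were found for aldh7a1, an enzyme of betaine synthesis (1.08), gpcpd1, which releases choline from lipid breakdown products (0.91), and chka, the choline kinase gene (0.51). With library sizes alone the call of aldh7a1 was lost (0.11) and the other 2 fell below 0. The call of chka (adjusted p = 0.0267) was also lost when DRG replicate 1 or any spinal cord library was left out (adjusted p from 0.0526 to 0.113).

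Acetyl-CoA is the other substrate. Of 12 genes tested, 6 were higher in DRG and 3 in spinal cord (median log2 fold change 0.35). The mitochondrial pyruvate carrier genes mpc1 and mpc2b were at 290 ± 89.5 and 374 ± 114 CPM in DRG and at 83.3 ± 11.7 and 98.4 ± 8.18 in the spinal cord (SDs of 3 libraries; log2FC 1.80 and 1.93, adjusted p = 0.000481 and 0.000247). The pyruvate dehydrogenase component pdhx rose in DRG as well (1.30), a call lost with library sizes alone (0.34, adjusted p = 0.0985). Cytosolic acetyl-CoA synthesis genes had lower levels in DRG, with aclya (ATP citrate lyase) at 302 ± 80.4 CPM against 530 ± 40.7 CPM in spinal cord (SDs of 3 libraries; log2FC -0.81, SE 0.21, adjusted p = 0.0116) and acss2 at -0.70. The largest difference in the list was that of dld, at 0.324 ± 0.241 CPM in DRG and 14.8 ± 1.35 in the spinal cord (SDs of 3 libraries; log2FC -5.56, SE 0.54, adjusted p = 9.10e-05). In zebrafish that symbol names the Notch ligand deltaD rather than dihydrolipoamide dehydrogenase, and which gene the row holds cannot be told from the symbol. The pyruvate dehydrogenase gene pdhb was at 222 CPM in DRG and 136 in the spinal cord (adjusted p = 0.00547). For dlat the levels were 249 and 209 CPM, and it did not pass (adjusted p = 0.284). Whether dld belongs in this list was not tested, and it is counted among the 3 genes higher in spinal cord.

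Muscarinic receptors, the G-protein coupled receptors of acetylcholine, were higher in spinal cord for all 3 genes tested. The share over all tested genes was 28.1%. The inhibitory receptor gene chrm4a was at 7.48, 8.91 and 7.81 CPM in the spinal cord and at 1.43, 0.117 and 0.723 in DRG, in replicates 1, 2 and 3 (log2FC -3.40, SE 0.63, adjusted p = 0.00227; -4.20 without DRG replicate 1). For chrm2a the levels were 6.59, 9.44 and 7.86 CPM in the spinal cord and 1.14, 2.05 and 4.79 in DRG (log2FC -1.57, SE 0.49, adjusted p = 0.0248). The call of chrm2a was lost without DRG replicate 2 (adjusted p = 0.0708), spinal cord replicate 2 (0.0801) or spinal cord replicate 3 (0.0598), and without DRG replicate 3 its log2 fold change was -2.33. The third gene, chrm5b, was weakly expressed, at no more than 0.681 CPM in any library.

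Nicotinic receptors, the ion channels gated by acetylcholine, were represented by 3 tested genes. The neuronal subunit gene chrna6 was at 51.1, 29.6 and 39.6 CPM in DRG and 18.4, 22.5 and 21.8 in the spinal cord (log2FC 0.94, SE 0.21, adjusted p = 0.00574), a direction that was lost with library sizes alone (-0.02, adjusted p = 0.958). The gene chrna9a, named after its values were seen, also passed as higher in DRG (adjusted p = 0.0197), but its levels were 0.343, 29.3 and 4.52 CPM in DRG and 0.059 to 0.789 CPM in spinal cord, so that the tissues overlapped and DRG replicate 2 held most of its counts. The muscle subunit gene chrna1 did not pass (adjusted p = 0.305). Of the genes that assist or modulate these receptors, ric3a, a chaperone, had a lower level in DRG (log2 fold change -0.93, adjusted p = 0.0136; 0.0544 without spinal cord replicate 3). The modulator lypd6 did so as well (-1.80, adjusted p = 0.0200), with the call lost under the replicate block (adjusted p = 0.0512) and without spinal cord replicate 1 or 2 (0.0631 and 0.0756). The third gene, lypd6b, did not pass (adjusted p = 0.0509).

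Genes for the assembly of the neuromuscular junction, where colq is best known, were higher in spinal cord for 5 of 9 tested genes and in DRG for none (median log2 fold change -0.98). Over all tested genes these shares were 28.1% and 27.8%. The nerve-derived organiser agrn was at 394 ± 8.82 CPM in the spinal cord and 118 ± 8.56 in DRG (SDs of 3 libraries; log2FC -1.74, SE 0.13, adjusted p = 2.95e-05). Its receptor gene lrp4 was at 23.6 ± 4.18 CPM in the spinal cord and 3.11 ± 0.756 in DRG (SDs of 3 libraries; log2FC -2.92, SE 0.24, adjusted p = 4.46e-05). Of the membrane scaffold genes, utrn had a log2 fold change of -1.63 and dag1 one of -0.92. Several of these genes are also expressed outside the junction.

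Transcription factors of cholinergic neurons fell into opposite classes, with 9 of 13 tested genes higher in spinal cord and 3 in DRG (median log2 fold change -3.42, the same with genes at the floor set to their bounds). The motor neuron determinant mnx1 was at 1.73, 2.66 and 3.23 CPM in spinal cord and had at most 1 count in a DRG library, which puts its DRG level at least 14.4-fold lower. Likewise gbx1 was at least 18.0-fold lower. For olig2, which specifies motor neuron progenitors, the means were 51.2 ± 5.90 and 0.447 ± 0.297 CPM in spinal cord and DRG (SDs of 3 libraries; log2FC -6.84, SE 0.35, adjusted p = 5.04e-06). Higher levels in DRG were found for isl1a, isl2a and etv4 (log2 fold changes 3.13, 4.27 and 4.40), factors that sensory neurons also express. Thus chata and slc18a3a had the direction of mnx1 and olig2 and not that of isl1a and isl2a. Of all tested genes, 28.1% passed as higher in spinal cord, and which cells hold the olig2 transcripts was not tested.

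Among vesicle genes, sv2ca, a synaptic vesicle glycoprotein gene, was at 512 ± 8.94 CPM in the spinal cord and 131 ± 36.7 in DRG (SDs of 3 libraries; log2FC -1.97, SE 0.22, adjusted p = 0.000170). The vesicular monoamine transporter gene slc18a2, of the same family as slc18a3a, was at 3.78 ± 1.45 CPM in the spinal cord and 0.371 ± 0.239 in DRG (SDs of 3 libraries; log2FC -3.31, SE 0.59, adjusted p = 0.00192). The gene slc10a4, whose product is found in cholinergic vesicles of mammals, did not pass, at 0.400, 0.410 and 0.904 CPM in DRG and 0.789, 1.39 and 1.10 in the spinal cord (adjusted p = 0.166). All 4 tested genes of proteins that share the fold of acetylcholinesterase were higher in spinal cord, as were 28.1% of all tested genes. They were the synaptic adhesion genes nlgn1, nlgn3a and nlgn4xa (log2 fold changes -5.61, -2.59 and -1.54) and the carboxylesterase gene ces2b (-4.83). Each of the 4 had a log2 fold change below the -0.95 of ache itself, as had 23.7% of all tested genes.

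**Figure D4:**
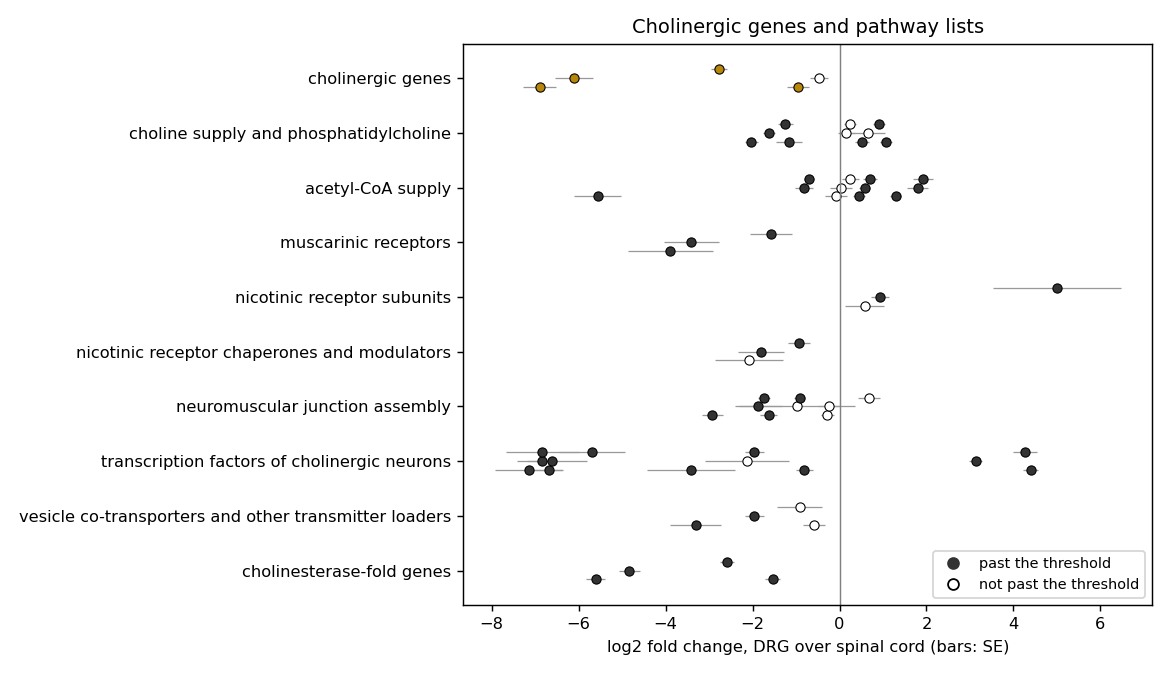
Log2 fold change (DRG over spinal cord, with its SE) of the 5 cholinergic genes and of each tested gene in 9 lists, with filled points for an adjusted p under 0.05. The cholinergic genes span -6.90 (chata) to -0.47 (colq, open), and among the lists values of both signs past the threshold occur for choline supply, acetyl-CoA supply and the transcription factors.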

How the data were processed

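Per the submitters' processing notes, Trimmomatic, HISAT2 2.2.0, SAMtools, featureCounts and edgeR 4.4 were used, with no role or order given. The authors deposited raw whole-number counts per gene. Genome build, annotation and the strand setting of the counting are not given in the sources used here, so no coordinates are printed. Libraries were stranded and polyA-selected, per the labels' protocols. All 5 cholinergic genes matched the RefSeq table, which was used for names and neighbours and holds no gene descriptions, so rows without a symbol were not searched for further cholinergic genes.

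A total of 24 rows that name no gene (1.02% to 2.04% of counts) were left out. Tests used R 4.3.3 and edgeR 4.0.16 (filterByExpr, TMM, glmQLFit, glmQLFTest, tissue as the only term) with Benjamini-Hochberg adjustment over 16112 genes. The SE is the log2 fold change divided by the square root of F. A fold against at most 3 counts in every library is a lower bound. The fit was tested on simulated counts with few changed genes, of random direction, and the same dispersion for every gene. This does not cover data in which 55.9% of genes pass, so it cannot rate the fit for that case. Alternatives used DESeq2 1.42.0 and limma 3.58.1. Figures used matplotlib 3.10.9.

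Labels give the same pool number, also listed as a batch, to both tissues of a replicate, so the libraries are paired by label. The correlation of their deviations from the tissue means over genes was 0.48, -0.24 and -0.18 for pools 815, 816 and 818. Replicates of a tissue differed by more than counting noise (chi-square per gene of at least 21.6). Whether pools came from separate clutches is not stated. No test within a batch was possible, as each holds a single library per tissue.

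Genes named are the cholinergic genes, in each list up to 3 per direction with the largest fold change past the threshold, no overlap and at least 1 CPM, the 5 nearest profiles, of which those withheld are not reported here. Neighbouring genes on the chromosome and list genes outside this rule were named after their values were seen. The cholinergic genes, the lists and the tests were chosen with earlier results of these data known.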

Additional observations from a re-analysis of the deposited data

How the results depend on the processing

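The number of cholinergic genes past the threshold was 4, and it was 4 or 5 under each alternative, apart from 3 with at least 10 counts in every library, where chata and slc18a3a were not tested. The fifth call was colq. Over the alternatives that tested each gene, the log2 fold change was -7.84 to -6.50 for chata, -7.02 to -5.83 for slc18a3a, -3.74 to -2.65 for prima1, -1.86 to -0.73 for ache and -1.40 to -0.28 for colq, with the most negative value of each gene under library sizes alone. Of 73 fits of these genes, 68 kept the call and direction, and of 458 fits of the 31 list genes named, 442 did. With library sizes alone, gpcpd1, chka and chrna6 turned to -0.0488, -0.434 and -0.0152 on the log2 scale. The replicate block, which gave 8425 calls against 9002, added the call of colq and removed that of lypd6, and changed no other call among the cholinergic genes and the 31 list genes. Across the 6 fits that left out 1 library, 7416 to 9534 genes and 39 to 48 pathway list genes passed, against 46 with all libraries. The log2 ratio difference of chata to slc18a3a was -0.80, and -1.42 to -0.39 with 1 library left out. The mean DRG percentage of chata was 0.432 with library sizes alone. With 3 to 38 counts in DRG, depth limits how well the DRG levels of chata and slc18a3a and their ratio are known.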
